A study of Mus musculus with 15 samples.

Results

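The receptors that macrophages use to sense microbial products were followed as 10 mouse genes, Tlr1 to Tlr9 and Cd14, taken by symbol from a table of 55385 genes. All 10 were present in that table. They were measured by stranded RNA sequencing in bone marrow-derived macrophages (BMDMs) of BALB/c mice aged 6 wk. Mice homozygous for the floxed Stat5 locus (STAT5 fl/fl, 2 mice) served as controls. Their counterparts carried the same floxed locus together with Csf1r-iCre (STAT5cKO, 3 mice), a recombinase driven by a promoter of the myeloid lineage and not limited to macrophages of tumors. Cells of every mouse were held for 2 h in serum-free DMEM, in 20 ng/mL recombinant mouse GM-CSF or in 4T1 CM, the medium conditioned by serum-starved 4T1 cells, a mouse mammary tumor line. This gave 15 libraries in 6 groups of 2 or 3.

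Toll-like receptors are membrane proteins whose outer domain binds a conserved microbial product and whose inner domain recruits adaptors such as MyD88 and TRIF, which lead to NF-kB and interferon regulatory factors. TLR1, TLR2, TLR4, TLR5 and TLR6 act mostly at the cell surface, whereas TLR3, TLR7, TLR8 and TLR9 sense nucleic acids in endosomes. CD14, a lipid-anchored surface protein and a classical marker of monocytes and macrophages, hands lipopolysaccharide to TLR4 and its partner MD-2. STAT5A and STAT5B are the transcription factors best known for acting downstream of the GM-CSF receptor.

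Library totals ran from 16016736 to 22883108 counts, with a median of 21379480. Stat5a and Stat5b had 637 to 1654 counts in every STAT5 fl/fl library and at most 4 in any STAT5cKO library. Levels are given as normalized CPM, the count divided by the library total in units of 1e6 after scaling by relative log expression. Differences are log2 fold changes with standard errors (SE) and were called at a Benjamini-Hochberg adjusted p under 0.01 in the edgeR quasi-likelihood test over 13005 genes. Replicates were biological per the study's methods and were taken here as mice, from the number that leads each library name. All 7 macrophage markers examined were detected in every library, with Csf1r between 3820 and 4200 normalized CPM. Ly6g, Cd3g, Cpa3 and Krt14, defining genes of neutrophils, T cells, mast cells and basal epithelium, had no count anywhere. Other markers of these and further cell types were detected. Cd4 had 102 to 248 counts and the neutrophil gene S100a8 had 3 to 50 counts in every library, the dendritic cell genes Zbtb46 and Siglech had at least 10 and 4, and the epithelial gene Cdh1 reached 84. The 5 T and NK cell markers summed to 8.90 to 10.4 normalized CPM in the STAT5 fl/fl libraries and to 5.80 to 7.35 in the STAT5cKO libraries, mostly through Cd4, and the part of such cells in the genotype differences was not tested.

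RefSeq start-site windows on GRCm38.p6 were available for 7 of the 10 genes. Of these, the 4 genes with the largest changes between media are shown, 3 that rose with a stimulus and 1 that fell. Each line holds the bases before the RefSeq start site that lie outside annotated exons, read on the strand of the gene. Capitals mark exact matches, on either strand, to 5 motifs searched in the 250 bases before each start site, namely TTCNNNGAA for STAT factors, TGANTCA for AP-1, GAGGAA for PU.1, the NF-kB consensus and the tandem interferon regulatory factor motif. The windows lie at chr3:83841768-83841858 on the minus strand for Tlr2, at chr5:64933564-64933808 on the minus strand for Tlr1, at chr1:182954538-182954787 on the plus strand for Tlr5 and at chr9:106222348-106222597 on the plus strand for Tlr9.
Tlr2: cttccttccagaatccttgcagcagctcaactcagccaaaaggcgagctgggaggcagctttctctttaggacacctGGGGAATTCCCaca
Tlr1: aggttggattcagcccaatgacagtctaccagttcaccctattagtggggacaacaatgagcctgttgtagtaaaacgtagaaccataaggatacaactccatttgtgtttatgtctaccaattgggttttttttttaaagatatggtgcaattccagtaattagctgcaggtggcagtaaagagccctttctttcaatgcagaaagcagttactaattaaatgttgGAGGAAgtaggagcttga
Tlr5: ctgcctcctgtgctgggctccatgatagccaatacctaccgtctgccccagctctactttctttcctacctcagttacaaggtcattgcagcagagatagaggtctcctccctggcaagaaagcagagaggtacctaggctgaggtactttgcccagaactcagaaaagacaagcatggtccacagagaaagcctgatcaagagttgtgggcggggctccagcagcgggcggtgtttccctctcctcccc
Tlr9: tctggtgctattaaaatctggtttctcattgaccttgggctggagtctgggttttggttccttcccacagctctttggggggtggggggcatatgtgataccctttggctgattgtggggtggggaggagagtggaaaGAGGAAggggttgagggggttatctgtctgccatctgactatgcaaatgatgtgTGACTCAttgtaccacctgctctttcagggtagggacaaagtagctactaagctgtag
The NF-kB consensus matched in the Tlr2 window at 2 overlapping positions, and 7.25% of 32851 windows of 250 bases held it. Tlr9 had 1 AP-1 match and 1 PU.1 match, motifs held by 6.75% and 23.3% of windows. A single PU.1 match lay in the Tlr1 window, and the Tlr5 window held none of the 5 motifs. None of these 4 windows held the STAT motif, which 7.02% of windows carried, whereas the windows of Tlr8 and of a further start site of Tlr1 each held 1. Among the other genes not shown, the Tlr3 window also held 1 match to the NF-kB consensus, and that of Tlr8 held 1 PU.1 match. One start site of Tlr6 had 2 overlapping matches to the interferon regulatory factor motif, which 2.98% of windows held.

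Compared per kb of exon, the levels of the 10 genes spanned more than 3 orders of magnitude. In STAT5 fl/fl BMDMs in DMEM, Cd14 was the highest at 492 ± 42 normalized CPM per kb (SD, n = 2). Tlr7 followed at 107 ± 3.1, Tlr8 at 66.5 ± 1.5, Tlr2 at 51.9 ± 2.2, Tlr4 at 37.0 ± 1.7 and Tlr9 at 26.7 ± 2.4 (SD, n = 2). Lower still were Tlr1 at 13.0 ± 0.14, Tlr6 at 9.81 ± 0.51, Tlr3 at 4.27 ± 0.079 and Tlr5 at 0.110 ± 0.032 normalized CPM per kb (SD, n = 2). No neighbours in this order overlapped between their libraries. In STAT5cKO BMDMs in DMEM the order was the same, but Tlr8 (69.6 ± 1.8) and Tlr2 (65.7 ± 7.6; SD, n = 3) overlapped. With GM-CSF, Tlr2 rose to second place in both genotypes, at 297 ± 17 in STAT5 fl/fl (n = 2) and 297 ± 27 in STAT5cKO (n = 3). With 4T1 CM, Tlr7 dropped to 26.1 ± 2.1 normalized CPM per kb in STAT5 fl/fl (SD, n = 2), below Tlr4 at 54.0 ± 1.5, and the ranges of Tlr6 and Tlr9 overlapped there.

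**Figure D1:**
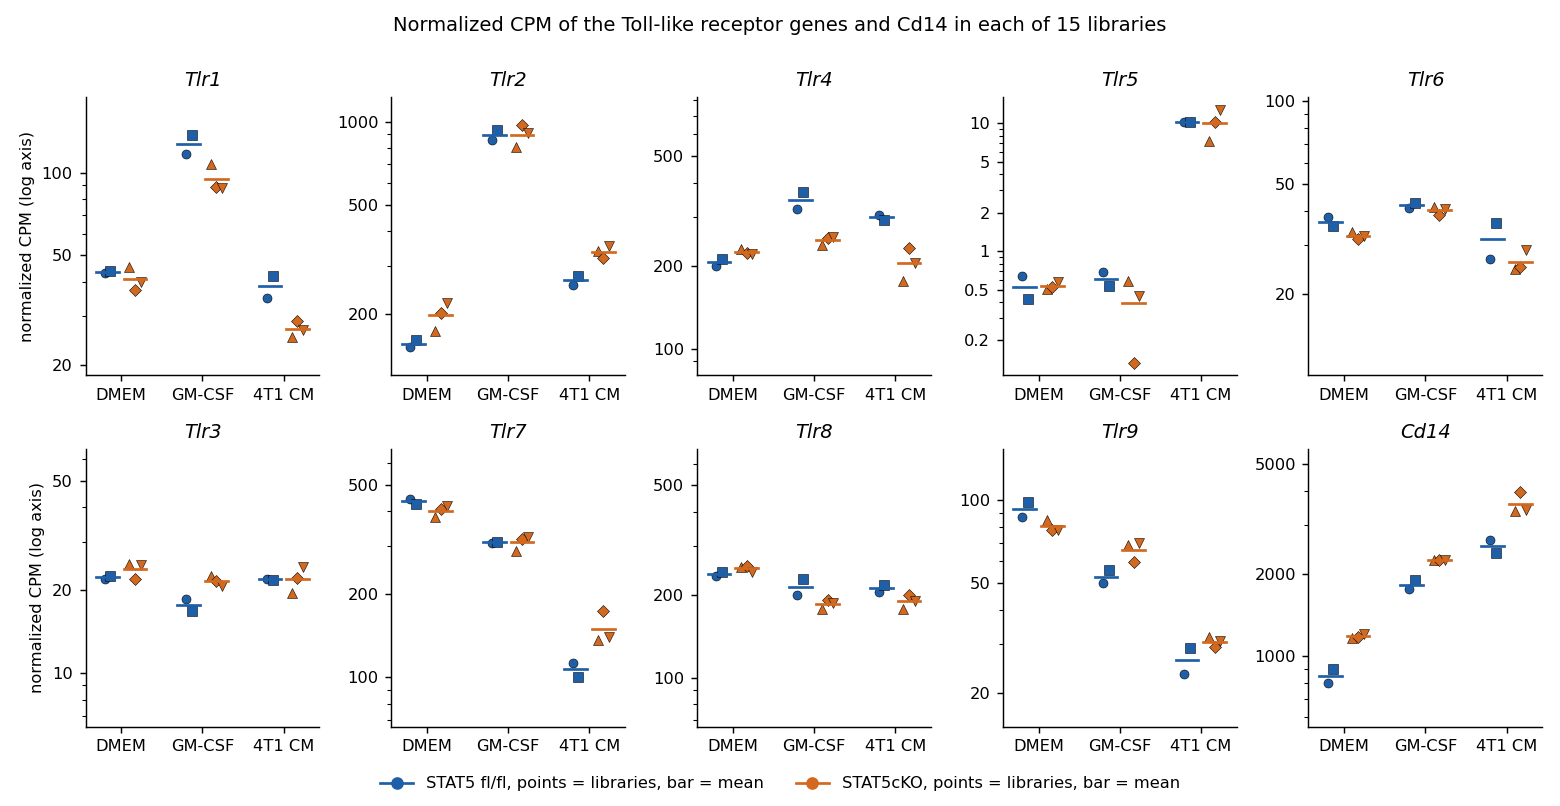
Normalized CPM (log axis) of each gene in the 15 libraries by medium, with 1 point per library, marker shape for the mouse, a bar for the group mean and color for the genotype. Tlr5 stands near 0.5 in DMEM and GM-CSF and near 10 in 4T1 CM, Tlr2 peaks with GM-CSF at a mean of 897 in both genotypes, and Tlr4 rises with either stimulus in the STAT5 fl/fl libraries.

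The first question was how each stimulus changed the receptors. With GM-CSF, Tlr2, Tlr1, Cd14 and Tlr4 rose and Tlr9 and Tlr7 fell in STAT5 fl/fl BMDMs, that is 6 of 10 members, against 28.5% of all genes tested. In STAT5cKO BMDMs, Tlr2, Tlr1 and Cd14 rose and Tlr8 and Tlr7 fell, 5 of 10 members against 23.5% of genes. With 4T1 CM, Tlr5, Cd14, Tlr2 and Tlr4 rose and Tlr7 and Tlr9 fell in STAT5 fl/fl, 6 of 10 against 37.4%. In STAT5cKO, Tlr5, Cd14 and Tlr2 rose and Tlr7, Tlr9, Tlr1 and Tlr8 fell, 7 of 10 against 37.6%. The 6 and the 7 members with 4T1 CM include Tlr5, which passed the low-count filter only through the 4T1 CM libraries. The median log2 change of the members was 0.20 and 0.00363 with GM-CSF and -0.10 and -0.22 with 4T1 CM, in STAT5 fl/fl and STAT5cKO in that order. The medians over all genes were -0.00621, -0.00347, 0.02 and 0.01. Since these are bulk samples, fewer cells of a type and less RNA per cell cannot be told apart.

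**Figure D2:**
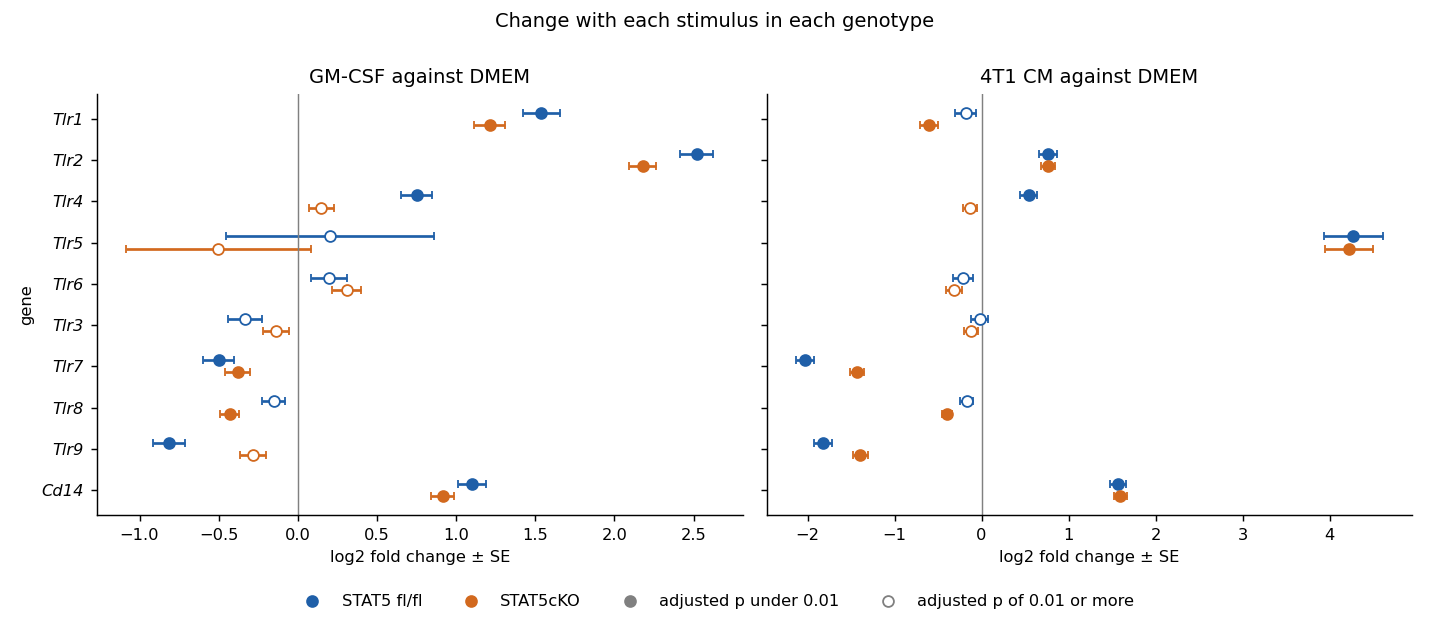
Log2 fold change with its SE for GM-CSF against DMEM (left) and 4T1 CM against DMEM (right), for each gene in STAT5 fl/fl (blue) and STAT5cKO (orange), with filled points at an adjusted p under 0.01. Tlr4 lies at 0.75 and 0.54 in STAT5 fl/fl and at 0.15 and -0.13 in STAT5cKO, and Tlr5 lies above 4 with 4T1 CM in both genotypes.

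Among the surface receptors, Tlr2 (ENSMUSG00000027995, chr3:83836272-83841767, minus strand) had the strongest response to GM-CSF. TLR2 binds bacterial lipopeptides as a dimer with TLR1 or TLR6. Its normalized CPM was 152 and 161 in STAT5 fl/fl and 173, 202 and 219 in STAT5cKO in DMEM. With GM-CSF the values were 860 and 933 in STAT5 fl/fl and 809, 972 and 909 in STAT5cKO. In 4T1 CM they were 255 and 275 in STAT5 fl/fl and 338, 320 and 353 in STAT5cKO. The GM-CSF libraries stood above all others, and every 4T1 CM library stood above every DMEM library. GM-CSF raised Tlr2 5.73-fold in STAT5 fl/fl (log2 2.52, SE 0.10, adjusted p = 3.96e-12) and 4.53-fold in STAT5cKO (log2 2.18, SE 0.085, adjusted p = 2.1e-12). 4T1 CM raised it 1.70-fold in both genotypes (adjusted p = 7.72e-06 and 5.27e-07).

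Tlr1 (ENSMUSG00000044827, chr5:64924679-64933563, minus strand) encodes a partner of TLR2 for triacylated lipopeptides. In DMEM it was at 43.3 and 44.0 normalized CPM in STAT5 fl/fl and at 45.5, 37.4 and 39.9 in STAT5cKO. GM-CSF brought it to 117 and 137 in STAT5 fl/fl and to 108, 88.7 and 87.7 in STAT5cKO. In 4T1 CM the values were 35.1 and 42.0 in STAT5 fl/fl and 25.3, 28.8 and 26.8 in STAT5cKO. The GM-CSF groups did not overlap each other or any other group, and the 4T1 CM libraries of STAT5cKO were the lowest of all. The rise with GM-CSF was 2.90-fold in STAT5 fl/fl (log2 1.54, SE 0.12, adjusted p = 1.19e-08) and 2.32-fold in STAT5cKO (log2 1.21, SE 0.096, adjusted p = 2.83e-08). With 4T1 CM, Tlr1 fell by 0.60 on the log2 scale in STAT5cKO (SE 0.10, adjusted p = 9.63e-05), while the value in STAT5 fl/fl was -0.18 (SE 0.12, adjusted p = 0.238).

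Tlr6 (ENSMUSG00000051498, chr5:64952031-64960097, minus strand), the TLR2 partner for diacylated lipopeptides, lies next to Tlr1 and moved far less. It ran from 24.5 to 42.8 normalized CPM over the 15 libraries, with group means between 26.1 ± 2.4 in STAT5cKO with 4T1 CM (SD, n = 3) and 41.9 ± 1.3 in STAT5 fl/fl with GM-CSF (SD, n = 2). None of its 4 changes against DMEM was called. The closest were 0.31 with GM-CSF and -0.31 with 4T1 CM in STAT5cKO, at adjusted p of 0.0143 and 0.0101, and with the mouse as a block both were called (adjusted p = 0.00938 and 0.00673). Between 4T1 CM and GM-CSF it was lower with 4T1 CM in both genotypes, at log2 values of -0.41 and -0.62 (adjusted p = 0.00757 and 3.46e-05 in STAT5 fl/fl and STAT5cKO). Without mouse 112, 114, 115 or 116, or with the 2 compared groups fitted alone, the STAT5 fl/fl call was lost, with adjusted p of 0.168, 0.0122, 0.0131, 0.0104 and 0.0273, and the log2 value without mouse 112 was -0.24. Transcripts of Tlr1 and Tlr6 share an identical run of 229 bases. Only read pairs with a mapping quality of at least 10 were counted, so reads from that run may be lost to both genes. No other pair of members shared more than 18.

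Tlr5 (ENSMUSG00000079164, chr1:182954788-182976044, plus strand), the flagellin receptor, was close to silent except with 4T1 CM. In DMEM its normalized CPM was 0.637 and 0.421 for STAT5 fl/fl and 0.505, 0.522 and 0.576 in STAT5cKO, which rest on 10 to 14 counts a library. With GM-CSF the levels were 0.685 and 0.536 for STAT5 fl/fl and 0.588, 0.134 and 0.447 in STAT5cKO, from 3 to 12 counts. In 4T1 CM the levels were 10.2 and 10.3 in STAT5 fl/fl and 7.28, 10.2 and 12.9 in STAT5cKO, from 154 to 284 counts. Thus every 4T1 CM library exceeded every other library, and the gene passed the low-count filter through these libraries alone. The rise over DMEM was 19.3-fold in STAT5 fl/fl (log2 4.27, SE 0.34, adjusted p = 1.56e-08) and 18.7-fold in STAT5cKO (log2 4.23, SE 0.28, adjusted p = 9.32e-10). Within single mice it ranged from 14.4-fold to 24.5-fold. Against GM-CSF the differences were 16.8-fold in STAT5 fl/fl and 26.5-fold in STAT5cKO (adjusted p = 9.51e-08 and 1.61e-09), where the 3 counts of 1 GM-CSF library lie at the floor of 3 counts. The STAT5cKO log2 value of 4.73 became 5.42 without mouse 114 and 4.25 without mouse 115. Of the epithelial markers that could mark RNA from 4T1 cells, Krt14 was at 0 in all libraries and the 5 markers summed to 3.16 to 4.33 normalized CPM in STAT5 fl/fl and 1.23 to 2.17 in STAT5cKO with 4T1 CM. The sum was 1.18 to 1.43 in STAT5 fl/fl with GM-CSF and at most 0.136 in the other groups, and in 4T1 CM it was mostly Cdh1, with 2 to 4 of the 5 markers at 0. The part of such RNA in the Tlr5 rise was not tested.

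Tlr4 (ENSMUSG00000039005, chr4:66827584-66930284, plus strand), the lipopolysaccharide receptor, differed between genotypes in its response to both stimuli. In DMEM it was at 199 and 212 normalized CPM in STAT5 fl/fl and at 230, 222 and 220 in STAT5cKO. GM-CSF brought it to 321 and 372 in STAT5 fl/fl and to 238, 252 and 254 in STAT5cKO. In 4T1 CM it was at 306 and 294 in STAT5 fl/fl and at 177, 233 and 205 in STAT5cKO. Every stimulated STAT5 fl/fl library was above every other library. In STAT5cKO the GM-CSF libraries all lay above the DMEM libraries, and the 4T1 CM libraries lay on both sides of them. In STAT5 fl/fl, Tlr4 rose 1.68-fold with GM-CSF (log2 0.75, SE 0.098, adjusted p = 8.8e-06) and 1.46-fold with 4T1 CM (log2 0.54, SE 0.097, adjusted p = 0.000177). In STAT5cKO the log2 values were 0.15 (SE 0.079, adjusted p = 0.169) and -0.13 (SE 0.080, adjusted p = 0.192). The 4T1 CM call in STAT5 fl/fl was lost without mouse 112 (log2 0.47, adjusted p = 0.0173).

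The co-receptor gene Cd14 (ENSMUSG00000051439, 36725067 to 36726798 on the minus strand of chromosome 18) rose with both stimuli in both genotypes. In DMEM it was at 800 and 903 normalized CPM in STAT5 fl/fl and at 1167, 1179 and 1208 in STAT5cKO. GM-CSF brought it to 1757 and 1888 in STAT5 fl/fl and to 2235, 2231 and 2236 in STAT5cKO. In 4T1 CM it reached 2657 and 2383 in STAT5 fl/fl and 3379, 3948 and 3417 in STAT5cKO. The 6 groups did not overlap, and within each medium the STAT5cKO libraries were the higher ones. GM-CSF raised it 2.14-fold in STAT5 fl/fl (log2 1.10, SE 0.088, adjusted p = 2.43e-08) and 1.88-fold in STAT5cKO (log2 0.91, SE 0.072, adjusted p = 2.47e-08). With 4T1 CM the rise was 2.96-fold in STAT5 fl/fl (log2 1.57, SE 0.089, adjusted p = 2e-10) and 3.02-fold in STAT5cKO (SE 0.073 on the log2 scale, adjusted p = 6.58e-12).

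Turning to the endosomal receptors, Tlr7 (ENSMUSG00000044583, chrX:167304929-167330558, minus strand), a sensor of single-stranded RNA, had the highest level per kb of the 9 receptors in DMEM and fell the most of them with 4T1 CM. Its normalized CPM in DMEM was 444 and 426 in STAT5 fl/fl and 381, 407 and 418 in STAT5cKO. With GM-CSF the values were 306 and 310 in STAT5 fl/fl and 286, 317 and 323 in STAT5cKO. In 4T1 CM they were 113 and 100 in STAT5 fl/fl and 136, 173 and 139 in STAT5cKO. The 3 media did not overlap in either genotype. Tlr7 was 4.09-fold lower with 4T1 CM than in DMEM in STAT5 fl/fl (log2 -2.03, SE 0.10, adjusted p = 4.11e-11) and 2.69-fold lower in STAT5cKO (log2 -1.43, SE 0.082, adjusted p = 1.38e-10). With GM-CSF it was 1.41-fold and 1.30-fold lower (adjusted p = 0.000566 and 0.00125). The STAT5 fl/fl call for GM-CSF was lost without mouse 112 or mouse 113, at adjusted p of 0.0344 and 0.0172.

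Tlr9 (ENSMUSG00000045322, chr9:106222598-106226883, plus strand), the receptor for unmethylated CpG DNA, followed the same order of media. In DMEM it was at 86.9 and 98.9 normalized CPM in STAT5 fl/fl and at 85.0, 78.3 and 78.2 in STAT5cKO. It was at 50.1 and 55.6 in STAT5 fl/fl and at 68.6, 59.9 and 70.1 in STAT5cKO with GM-CSF. In 4T1 CM the levels were 23.4 and 29.1 in STAT5 fl/fl and 31.8, 29.2 and 30.9 in STAT5cKO. Within each genotype the DMEM libraries were highest and the 4T1 CM libraries lowest, without overlap. With 4T1 CM, Tlr9 was 3.54-fold lower in STAT5 fl/fl (log2 -1.82, SE 0.11, adjusted p = 2.68e-10) and 2.63-fold lower in STAT5cKO (log2 -1.39, SE 0.085, adjusted p = 3.5e-10). With GM-CSF it fell in STAT5 fl/fl (log2 -0.81, SE 0.10, adjusted p = 5.52e-06), and in STAT5cKO the log2 value was -0.28 (SE 0.081, adjusted p = 0.0116). With the mouse as a block that last value was called (adjusted p = 0.00112).

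The remaining endosomal receptors varied little. Tlr8 (ENSMUSG00000040522, chrX:167242696-167264329, minus strand), a relative of TLR7, ran from 177 to 254 normalized CPM over all libraries. In STAT5cKO it was 1.35-fold lower with GM-CSF and 1.32-fold lower with 4T1 CM than in DMEM (adjusted p = 2.89e-05 for each). The log2 values in STAT5 fl/fl were -0.15 and -0.17 (adjusted p = 0.112 and 0.0619). Tlr3 (ENSMUSG00000031639, chr8:45395665-45411080, minus strand), the receptor for double-stranded RNA, which signals through TRIF, stayed between 16.8 and 24.8 normalized CPM. No comparison called Tlr3, and its largest log2 value was -0.34 for GM-CSF in STAT5 fl/fl (adjusted p = 0.0183).

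Directly compared, 4T1 CM and GM-CSF left the receptors at different levels in 7 of 10 members in STAT5 fl/fl, against 30.5% of genes, and in 8 of 10 in STAT5cKO, against 34.1%. Tlr5 and Cd14 were higher with 4T1 CM in both genotypes. Both counts include Tlr5, which passed the low-count filter only through the 4T1 CM libraries. Tlr1, Tlr2, Tlr6, Tlr7 and Tlr9 were lower with 4T1 CM in both, and Tlr4 also in STAT5cKO. Tlr1 showed differences of 3.29-fold and 3.51-fold, and Tlr2 of 3.38-fold and 2.66-fold, in STAT5 fl/fl and STAT5cKO in that order. The Tlr4 call in STAT5cKO (log2 -0.28, adjusted p = 0.00898) was lost without mouse 112, 113, 114 or 116, and with the 2 compared groups fitted alone, at adjusted p of 0.0123, 0.0114, 0.0525, 0.0682 and 0.0210. The Cd14 call in STAT5 fl/fl (log2 0.47, adjusted p = 0.000355) was lost without mouse 112 (log2 0.33, adjusted p = 0.0431).

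The second question was whether the receptors differed between the genotypes within a medium. No group carried Csf1r-iCre without loss of STAT5, so the effects of the recombinase and of the loss of STAT5 cannot be told apart. In DMEM, Cd14 alone was called, higher in STAT5cKO, which is 1 of 10 members against 2.49% of all genes. With GM-CSF, Tlr4 and Tlr1 were lower in STAT5cKO, 2 of 10 against 9.80%. With 4T1 CM, Tlr4 and Tlr1 were lower and Cd14 and Tlr7 higher in STAT5cKO, 4 of 10 against 7.70%. The median log2 difference of the members was 0.05, -0.03 and -0.00853 in DMEM, GM-CSF and 4T1 CM, and the medians over all genes were 0.00127, 0.000475 and 0.00981.

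**Figure D3:**
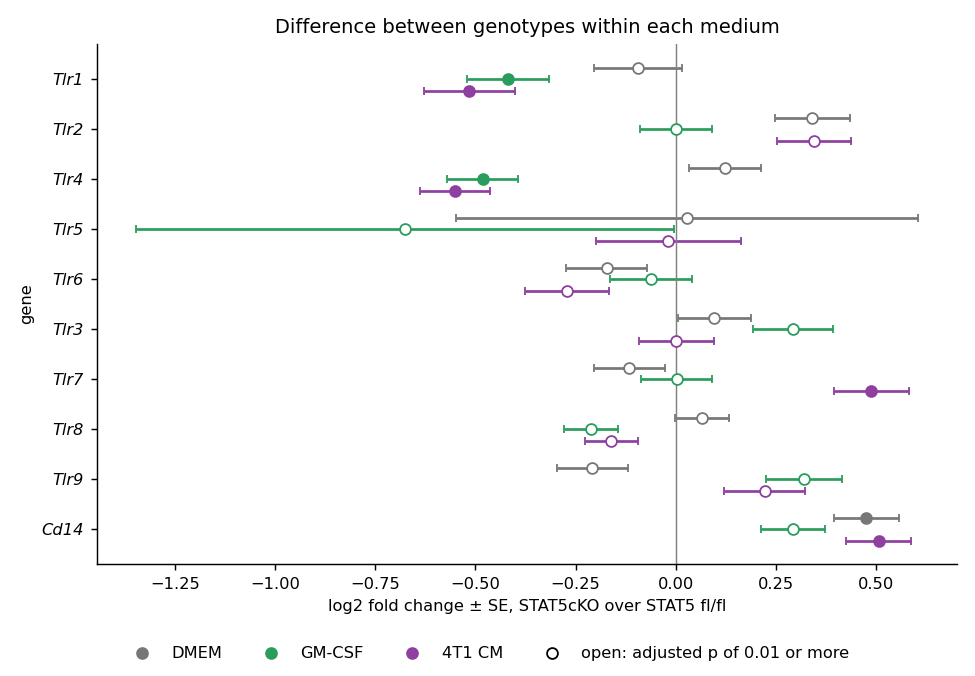
Log2 fold change with its SE for STAT5cKO over STAT5 fl/fl in DMEM (grey), GM-CSF (green) and 4T1 CM (purple), with filled points at an adjusted p under 0.01. Tlr4 lies at 0.12 in DMEM and at -0.48 and -0.55 with the stimuli, while Cd14 lies between 0.29 and 0.51 in all 3 media.

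Tlr4 was 1.40-fold lower in STAT5cKO with GM-CSF (log2 -0.48, SE 0.088, adjusted p = 0.000837) and 1.46-fold lower with 4T1 CM (log2 -0.55, SE 0.088, adjusted p = 0.000375). In DMEM its log2 value was 0.12 (SE 0.089, adjusted p = 0.458). The GM-CSF call was lost without mouse 113 (log2 -0.37, adjusted p = 0.0582), and the 4T1 CM call was lost when the 2 compared groups were fitted alone (adjusted p = 0.0163). Tlr1 was 1.34-fold lower in STAT5cKO with GM-CSF (log2 -0.42, SE 0.10, adjusted p = 0.00834) and 1.43-fold lower with 4T1 CM (log2 -0.51, SE 0.11, adjusted p = 0.00523). These calls were lost without single mice. With GM-CSF, the adjusted p for Tlr1 was 0.0127, 0.188, 0.0374 and 0.0542 without mouse 112, 113, 115 or 116. With 4T1 CM it was 0.126 without mouse 113, 0.0211 without mouse 116 and 0.0207 with the 2 compared groups alone.

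Cd14 was 1.39-fold higher in STAT5cKO in DMEM (log2 0.48, SE 0.081, adjusted p = 0.00185) and 1.42-fold higher with 4T1 CM (log2 0.51, SE 0.081, adjusted p = 0.000364). With GM-CSF its log2 value was 0.29 (SE 0.080, adjusted p = 0.0176). The DMEM call was lost without mouse 112, 113 or 116 (adjusted p = 0.0515, 0.0152 and 0.0138), and the 4T1 CM call without mouse 113 (0.0216) or with the 2 compared groups alone (0.0257). The summed macrophage markers ran from 23824 to 27176 normalized CPM over the STAT5 fl/fl libraries and from 29937 to 42644 over the STAT5cKO libraries, mostly through Lyz2. Over all 15 libraries Lyz2 ran from 17017 to 34431, whereas Csf1r stayed between 3820 and 4200. The part of these markers in the Cd14 difference was not tested. Tlr7 was 1.40-fold higher in STAT5cKO with 4T1 CM (log2 0.49, SE 0.093, adjusted p = 0.00163), a call lost without mouse 112 or 113 and with the 2 compared groups alone (adjusted p = 0.0115, 0.0780 and 0.0382). Tlr2 showed log2 differences of 0.34 in DMEM and 0.35 with 4T1 CM that were not called (adjusted p = 0.0359 and 0.0172), and levels of 897 in both genotypes with GM-CSF. With the 2 compared groups fitted alone, no member was called between genotypes in 4T1 CM and 4 were called in GM-CSF. Over all genes the same fits called 280 of 12476 in 4T1 CM, where the fit over 15 libraries called 1001, and 1725 of 12199 in GM-CSF, where it called 1275.

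The third question was whether the response to a stimulus itself differed between genotypes, which was tested as an interaction. Tlr4 was the single member called, with GM-CSF (1 of 10 against 3.11% of genes) and with 4T1 CM (1 of 10 against 1.27%). Its response in STAT5cKO was lower than in STAT5 fl/fl by a log2 difference of -0.61 with GM-CSF (SE 0.13, adjusted p = 0.00625) and of -0.67 with 4T1 CM (SE 0.13, adjusted p = 0.00568). Both interactions use the same DMEM libraries, in which Tlr4 was higher in STAT5cKO without overlap, though not called (log2 0.12). Within single mice, the GM-CSF level of Tlr4 over its DMEM level was 1.61 and 1.75 in STAT5 fl/fl and 1.03, 1.14 and 1.15 in STAT5cKO. The ratios with 4T1 CM were 1.54 and 1.38 in STAT5 fl/fl and 0.767, 1.05 and 0.932 in STAT5cKO. Neither set of ratios overlapped between genotypes, which was not particular to Tlr4. Of the members, only Tlr3 and Tlr5 had ratios that overlapped between genotypes with GM-CSF. With 4T1 CM the ratios of Tlr2, Tlr3, Tlr5, Tlr6 and Cd14 overlapped, and those of the other members did not. The calls depended on single mice. Without mouse 112, 113, 114 or 116 the adjusted p became 0.0407, 0.127, 0.0103 and 0.0256 with GM-CSF, and 0.0857, 0.0506, 0.0194 and 0.0274 with 4T1 CM. The log2 difference then stayed between -0.66 and -0.54 with GM-CSF and between -0.75 and -0.56 with 4T1 CM.

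**Figure D4:**
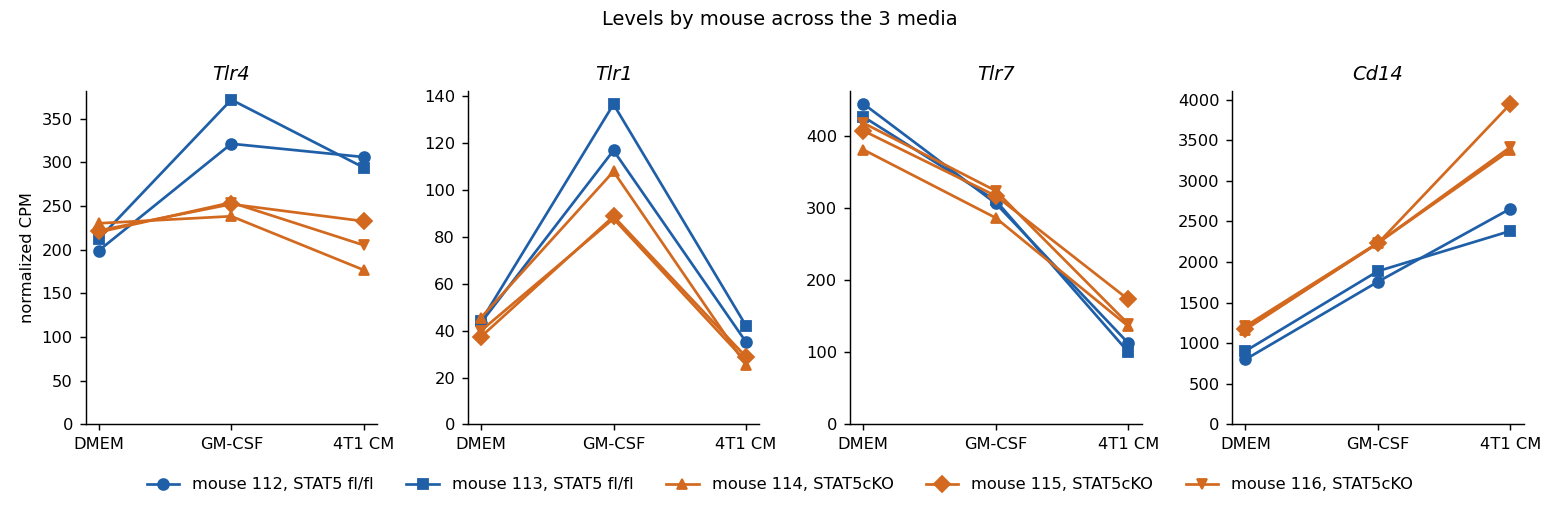
Normalized CPM (linear axis from 0) of Tlr4, Tlr1, Tlr7 and Cd14 in the 3 media, with 1 line per mouse, blue for STAT5 fl/fl and orange for STAT5cKO. For Tlr4 in DMEM the blue lines start at 199 and 212, below the orange lines at 220, 222 and 230. With GM-CSF and 4T1 CM both blue lines lie above the orange lines.

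For the other members the interaction was not called. The nearest were Tlr9 with GM-CSF (log2 0.53, SE 0.13, adjusted p = 0.0216) and Tlr7 with 4T1 CM (log2 0.60, SE 0.13, adjusted p = 0.0133), both with a smaller fall in STAT5cKO. With the mouse as a block, both were called (adjusted p = 0.00144 and 0.00171), which made 2 members called in each interaction. Tlr7 in 4T1 CM fell to 0.253 and 0.235 of its DMEM level in the STAT5 fl/fl mice and to 0.357, 0.426 and 0.333 in the STAT5cKO mice. Tlr5, Tlr2 and Cd14, which rose with 4T1 CM, had interaction log2 values of -0.05 (SE 0.61), 0.00426 (SE 0.13) and 0.03 (SE 0.11) with that medium. For Tlr5 the SE leaves a wide range.

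Of the mouse Toll-like receptors outside the 10, Tlr13, a sensor of bacterial ribosomal RNA, was abundant at 391 to 555 normalized CPM. With GM-CSF it was at 396 and 391 in STAT5 fl/fl and at 506, 555 and 545 in STAT5cKO, without overlap, and was 1.36-fold higher in STAT5cKO (log2 0.44, adjusted p = 0.000189). Tlr11 and Tlr12 never exceeded 4 counts.

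The rest of the pathway was read from a list of 67 genes, of which 60 passed the filter, with 37 called for GM-CSF against DMEM in STAT5 fl/fl (33 higher) and 32 in STAT5cKO (29 higher). Over all 13005 genes, 28.5% were called in STAT5 fl/fl (2062 higher and 1642 lower) and 23.5% in STAT5cKO (1730 and 1323). For 4T1 CM against DMEM, 29 were called in STAT5 fl/fl (21 higher) and 32 in STAT5cKO (25 higher), against 37.4% of all genes (2501 higher and 2366 lower) and 37.6% (2506 and 2388). The median log2 change over the 60 was 0.31 and 0.22 with GM-CSF and 0.19 and 0.15 with 4T1 CM, in STAT5 fl/fl and STAT5cKO. The genes with the smallest adjusted p among those that rose with GM-CSF were Cxcl2, a neutrophil chemokine, Ptgs2, the inducible cyclooxygenase, and Tnf in STAT5 fl/fl, at 72.5-fold, 41.3-fold and 38.9-fold. In STAT5cKO they were Cxcl2, the related chemokine Cxcl1 and Tnf, at log2 changes of 5.86, 6.63 and 4.91. With 4T1 CM, Il1b, which encodes interleukin-1 beta, rose 79.1-fold in STAT5 fl/fl and 44.5-fold in STAT5cKO, and Ptgs2 rose 13.9-fold and 23.8-fold. Cxcl2 rose 6.14-fold in STAT5 fl/fl, and Tnfaip3, which encodes the NF-kB inhibitor A20, rose 2.34-fold in STAT5cKO. Among genes that fell with GM-CSF, Tab1 and Ikbkg, which encode subunits of the TAK1 and IKK complexes, had log2 values of -0.67 and -0.36 in STAT5 fl/fl and -0.51 and -0.21 in STAT5cKO. Cd180, a TLR-related B cell and macrophage receptor, fell in STAT5 fl/fl (log2 -0.45) and Irf8 in STAT5cKO (log2 -0.51). With 4T1 CM the falls with the smallest adjusted p were those of Ccl3, Slc15a4, an endosomal transporter needed for TLR7 and TLR9 signaling, and Cd180, at -1.96, -1.33 and -0.96 in STAT5 fl/fl and -2.76, -1.30 and -0.64 in STAT5cKO.

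Between 4T1 CM and GM-CSF, 42 of the 60 were called in each genotype, with 33 lower in 4T1 CM in STAT5 fl/fl and 31 in STAT5cKO. Of all genes, 30.5% (1790 higher and 2178 lower) and 34.1% (2157 and 2277) were called. Tnf was 19.7-fold and 27.0-fold lower, Cxcl2 11.8-fold and 20.5-fold lower and Ccl3 42.4-fold and 26.7-fold lower with 4T1 CM, in STAT5 fl/fl and STAT5cKO. Of the 9 and 11 pathway genes that were higher with 4T1 CM, the 3 with the smallest adjusted p included Irf8 and the TLR chaperone Cnpy3 in both genotypes, at log2 values of 0.59 and 0.47 in STAT5 fl/fl and 0.88 and 0.44 in STAT5cKO. The third was Tab1 (0.65) in STAT5 fl/fl and Il1rl1 (1.92) in STAT5cKO.

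Between genotypes, 1 of the 60 pathway genes was called in DMEM, 20 with GM-CSF (7 higher and 13 lower in STAT5cKO) and 14 with 4T1 CM (5 higher and 9 lower). Over all genes, 2.49% were called in DMEM (122 higher and 202 lower in STAT5cKO), 9.80% with GM-CSF (464 and 811) and 7.70% with 4T1 CM (537 and 464). The median log2 difference over the 60 was 0.04 in DMEM, -0.08 with GM-CSF and -0.03 with 4T1 CM. The DMEM call was Lgmn, an endosomal protease that processes nucleic acid-sensing receptors, at a log2 difference of -0.63, and it was lower in the other media too (-0.56 and -0.58). Among co-receptors and accessory proteins, the scavenger receptor gene Cd36, whose product assists TLR2, was lower (log2 -1.01 with GM-CSF and -1.08 with 4T1 CM) and Cd180 higher (0.52 and 0.39). Of 6 genes for chaperones and trafficking, Hsp90b1, the chaperone gp96, was higher (0.26) and Ap3b1, a subunit of the sorting complex AP-3, lower (-0.31) with GM-CSF. Hsp90b1 was also higher in STAT5cKO in the other media, without overlap but not called. Its mean normalized CPM in STAT5 fl/fl and STAT5cKO was 682 and 828 in DMEM and 866 and 1027 with 4T1 CM. Ticam1, which encodes TRIF, was the single adaptor of 5 called, higher in STAT5cKO with 4T1 CM (0.38).

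**Figure D5:**
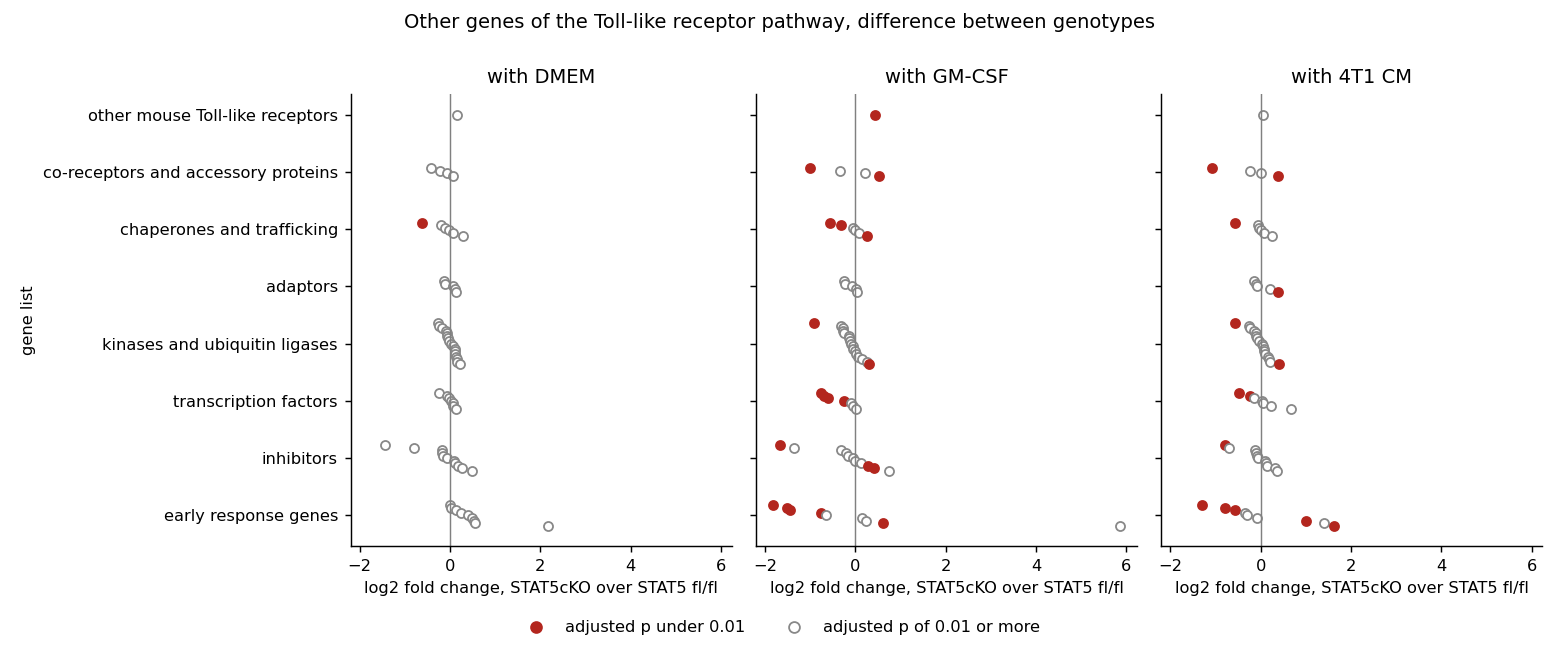
Log2 fold change of STAT5cKO over STAT5 fl/fl for the 60 tested genes of the pathway list, 1 point per gene, grouped by role, in DMEM, GM-CSF and 4T1 CM, with red filled points at an adjusted p under 0.01. DMEM has 1 called gene, GM-CSF has 20 and 4T1 CM has 14, and the open point near 6 in the GM-CSF panel was not called.

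Of 17 genes for kinases and ubiquitin ligases, Traf6, the ubiquitin ligase downstream of MyD88, was lower in STAT5cKO with both stimuli. Its normalized CPM was 151 and 160 in STAT5 fl/fl and 83.9, 81.9 and 80.8 in STAT5cKO with GM-CSF, and 85.2 and 78.5 against 57.9, 50.6 and 56.3 with 4T1 CM. In DMEM the genotypes overlapped between 60.3 and 64.6. The differences were -0.92 (adjusted p = 1.77e-08) and -0.58 (adjusted p = 1.78e-05) on the log2 scale. Ikbkg was higher with GM-CSF (0.31) and Ikbke, a kinase of interferon induction, higher with 4T1 CM (0.40). Though not called there, Ikbkg was also higher in STAT5cKO in the other media, without overlap. Its mean normalized CPM in STAT5 fl/fl and STAT5cKO was 66.0 and 73.8 in DMEM and 66.8 and 77.1 with 4T1 CM. Of 7 transcription factor genes, Irf5, Irf8, Rel and Nfkb1 were lower with GM-CSF (-0.69, -0.76, -0.61 and -0.25), and Irf8 and Irf5 with 4T1 CM (-0.48 and -0.23).

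Among 11 inhibitors, Socs1, a feedback inhibitor of cytokine receptors, was lower in STAT5cKO (-1.67 with GM-CSF and -0.79 with 4T1 CM), and Irak3, a decoy kinase, and Trafd1 were higher with GM-CSF (0.42 and 0.29). Irak3 was also higher in STAT5cKO in the other media, without overlap but not called. Its mean normalized CPM in STAT5 fl/fl and STAT5cKO was 25.3 and 28.4 in DMEM and 20.7 and 26.6 with 4T1 CM. Of 12 early response genes 9 passed the filter and 5 were called in each stimulus. With GM-CSF, Ccl4 (-1.82), Il1b (-1.51), Ccl3 (-1.46) and Ptgs2 (-0.75) were lower and Cxcl1 (0.62) was higher in STAT5cKO. With 4T1 CM, Ccl4 (-1.29), Ccl3 (-0.79) and Cxcl2 (-0.56) were lower, whereas Ptgs2 (2.01-fold) and Il10 (log2 1.63, on 6 to 38 counts a library) were higher. Beside these, the summed stromal markers were 5.36 to 9.09 normalized CPM in STAT5 fl/fl and 9.16 to 15.7 in STAT5cKO, and their part in the differences was not tested.

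The interaction with GM-CSF was called for 7 of the 60 genes, against 3.11% of all genes, of which 115 had a higher and 289 a lower response in STAT5cKO. The response of all 7 was lower in STAT5cKO, and these were Il1b (log2 -2.00), Ccl4 (-1.82), Ccl3 (-1.47), Traf6 (-0.91), Irf5 (-0.82), Rel (-0.58) and Irf8 (-0.53). With 4T1 CM, Traf6 was the only one of the 60 called, against 1.27% of all genes (log2 -0.56, SE 0.10, adjusted p = 0.00286), as Tlr4 was among the 10 receptors.

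Genes whose normalized log2 CPM followed each member most closely over the 15 libraries were listed as a description, the points sharing media, mice and depth. Tlr2 was closest to Sod2, Nfkbia and Acod1 (Pearson r of 0.989, 0.989 and 0.988), and Tlr1 to Klf3, Wtap and Rnd3 (0.985, 0.981 and 0.977). Tlr4 was closest to Ppp1r21, Clcn5 and Kpna4 (0.971, 0.929 and 0.916), and Tlr5 to Il21r, D16Ertd472e and C130050O18Rik (0.988, 0.985 and 0.983). For Tlr7 these were Pgap1, Ncoa4 and Cul4b (0.991, 0.984 and 0.984), for Tlr9 Retreg3, Eya1 and Stard5 (0.985, 0.981 and 0.979), and for Cd14 Coq10b, Olr1 and Cyfip1 (0.987, 0.985 and 0.984). Lower values were found for Tlr8 with Bmf, Pqlc2 and Lnx2 (0.933, 0.927 and 0.911), for Tlr6 with Gm43682, Parg and Mcmbp (0.918, 0.914 and 0.913) and for Tlr3 with Pcgf1, Adck2 and F630028O10Rik (0.880, 0.860 and 0.845).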

How the data were processed

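Total RNA of STAT5 fl/fl and STAT5cKO BMDMs was sequenced from stranded TruSeq libraries. The values used are the raw read counts per gene that the authors deposited. Per the study's methods and processing notes, reads were trimmed with Trimmomatic 0.33, aligned to GRCm38 with HISAT2 2.1.0 and counted on reverse-stranded read pairs with a mapping quality of at least 10 in featureCounts 1.6.2 over Ensembl release 99. The authors removed 1 STAT5 fl/fl replicate for quality. IDs were matched to symbols for 55144 of 55385 genes.

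The low-count filter asked for a CPM above 1 in 2 or more libraries, which left 13005 genes, all 10 members among them. Counts were scaled by relative log expression (factors 0.945 to 1.08) and fitted in edgeR 4.0.16 (R 4.3.3) as 6 group means over all 15 libraries, with the quasi-likelihood F test, Benjamini-Hochberg adjustment over all 13005 genes and a threshold of 0.01. A count of 3 was taken as the floor, for counting error only. The fits were tested on simulated data. Sequence windows are those of RefSeq on GRCm38.p6. Tlr4, Tlr7 and Cd14 had none.

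The leading number of each library name was taken as the mouse, since it recurs in all 3 media. Deviations from the group means correlated between libraries of 1 mouse with a mean r of 0.142 in STAT5 fl/fl (0.0926 to 0.213, 3 distinct values, since the deviations of 2 mice mirror each other) and 0.157 in STAT5cKO (0.0548 to 0.214, 9 pairs). The mouse was therefore also fitted as a block, which cannot be done between genotypes within a medium, where each mouse has 1 library.

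The alternatives were TMM scaling, other low-count filters, DESeq2 1.42.0, limma 3.58.1 voom with the mouse as a random effect, the compared groups alone, a threshold of 0.05, leaving out each mouse, and, added after the data were seen, the legacy form of the quasi-likelihood fit. Named genes were the 10 members, the pathway genes called in a genotype comparison or interaction, the 3 with the smallest adjusted p per direction between media, and the 3 genes correlating most with each member. The members and lists were chosen with earlier results of these data known.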

Additional observations from a re-analysis of the deposited data

Results flagged for a closer look

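The response of Tlr4 differed between the genotypes by a test of the difference itself. The interaction log2 value was -0.61 with GM-CSF and -0.67 with 4T1 CM, lower in STAT5cKO in both. The 2 values share the DMEM libraries and so are not separate evidence. Both calls depended on single mice and were lost without mouse 112, 113, 114 or 116. No group held enough libraries for a test of single outlying samples.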

How the results depend on the processing

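Among the members, 48 differences were called, and 34 of them were called with the same sign under every alternative run. The other 14 lost their call in at least 1 alternative. The 34 include the Tlr5 calls, all with 4T1 CM, and Tlr5 passed the low-count filter only through those libraries. Over all alternatives the called values stayed the same 624 times, lost their call 39 times and turned sign 0 times. Of the values not called, 747 stayed so, 49 became called and 27 turned sign.

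The number of members called between genotypes in DMEM was 1, and 2 with DESeq2 or at a threshold of 0.05. With GM-CSF it was 2, and 5 at a threshold of 0.05 or 4 with the compared groups alone. With 4T1 CM it was 4, and 0 with the compared groups alone, while the count over all genes went from 1001 to 280. The GM-CSF interaction had 1, and 2 at a threshold of 0.05, with DESeq2 or with the replicate block. The 4T1 CM interaction had 1, and 2 with no low-count filter, at a threshold of 0.05, with DESeq2, with voom or with the replicate block. Leaving out 1 mouse gave 0 to 2 (DMEM), 0 to 2 (GM-CSF) and 1 to 5 (4T1 CM) members between genotypes, and 0 to 1 in each interaction. In DMEM the count was 0 without mouse 112, 113 or 116 and 2 without mouse 114. With GM-CSF it was 1 without mouse 112, 115 or 116 and 0 without mouse 113, and with 4T1 CM it was 1 without mouse 113. Each interaction had 0 without mouse 112, 113, 114 or 116. A fit without 1 of the 2 STAT5 fl/fl mice assumes that the lone mouse varies like the others. The replicate block changed no call of a member beyond those of Tlr6, Tlr7 and Tlr9 given with the results.

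The values that turned sign were not called in the fit as reported. Leaving out 1 mouse at a time gave, between genotypes, ranges of -0.25 to 0.34 for Tlr5 in DMEM, -0.23 to 0.17 for Tlr5 in 4T1 CM, -0.0605 to 0.0688 for Tlr2 and -0.0316 to 0.0542 for Tlr7 with GM-CSF, and -0.0743 to 0.0811 for Tlr3 in 4T1 CM. Voom gave -0.00294 for that Tlr2 value and -0.00335 for that Tlr3 value, for which the compared groups alone gave -0.00638. Between media, the ranges in STAT5 fl/fl were -0.50 to 0.0421 for Tlr6 and -0.0488 to 0.000838 for Tlr3 (4T1 CM against DMEM) and -0.0719 to 0.0357 for Tlr8 (4T1 CM against GM-CSF). In STAT5cKO the range was -0.0834 to 0.13 for Tlr3 (4T1 CM against GM-CSF). In the 4T1 CM interaction they were -0.0843 to 0.0557 for Tlr2, -0.37 to 0.23 for Tlr5, -0.36 to 0.18 for Tlr6, -0.15 to 0.0146 for Tlr3 and -0.14 to 0.20 for Cd14. The cause of these changes was not tested. Tlr5 had 3 to 14 counts in each library of DMEM or GM-CSF, and groups held 2 or 3 libraries.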
